A study of Mus musculus with 2 samples.

Results

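The data describe 6 long noncoding RNAs in alveolar type 2 cells (type II pneumocytes), the surfactant-producing cells of the lung alveolus. Malat1 and Neat1 are nuclear RNAs, and Gas5, Snhg1, Snhg8 and Snhg12 are host transcripts of small nucleolar RNAs (snoRNAs). They were taken by symbol from a table of 24369 gene rows, and all 6 were found. The cells were sorted from lungs of wild-type (WT) C57BL6 mice at postnatal day 7 (P7) and postnatal day 28 (P28), with 1 library per age. How the cells were sorted, and how many mice of which sex they came from, is not stated in the labels. Values are RPKM (reads divided by gene length and by library depth). Levels of different genes are thus per length, but the gene lengths used are not given, which limits comparison between genes. With 1 library per age there is no replicate spread, there are no p-values, and each difference is between a single P7 and a single P28 library. Folds are plain ratios of RPKM at P28 over P7 with a 95% exact counting interval, which covers counting error only.

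Malat1 is among the most abundant nuclear RNAs of mammalian cells. It gathers in nuclear speckles, bodies rich in splicing factors. Neat1 is the scaffold of paraspeckles, nuclear bodies that hold RNA-binding proteins and form on its long isoform. Neither the mature Malat1 nor the long Neat1 isoform ends in an ordinary poly(A) tail: RNase P cuts in front of a tRNA-like structure, and the new end is protected by a triple helix of U-rich and A-rich tracts. The host RNAs work differently. Their introns are trimmed into snoRNAs, which guide chemical modification of ribosomal RNA, while the spliced exons carry no long reading frame and are commonly degraded by nonsense-mediated decay. Host genes of this kind often begin with a pyrimidine-rich start that they share with ribosomal protein genes.

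The RNA sequences show the difference between the 2 kinds. The 95 bases below end at the A-rich tract of each nuclear RNA, and are shown because they replace the poly(A) tail. They are from the longest GENCODE transcript of each on GRCm38, written 5′ to 3′ with T for U. Capitals mark TTTCTTTTCCTGA, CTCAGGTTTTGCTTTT and AAAAAGCAAAA, the 3 stretches of at least 10 bases that the last 95 bases of Neat1 share with the last 400 of Malat1. The Malat1 stretch lies at chr19:5795982-5796076 on the minus strand, from base 6597 to 6691 of 6983, and that of Neat1 at chr19:5824708-5824802 on the minus strand, from base 20677 to its last base, 20771.
Malat1: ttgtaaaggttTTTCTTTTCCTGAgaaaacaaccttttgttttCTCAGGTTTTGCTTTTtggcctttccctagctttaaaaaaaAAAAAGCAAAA
Neat1: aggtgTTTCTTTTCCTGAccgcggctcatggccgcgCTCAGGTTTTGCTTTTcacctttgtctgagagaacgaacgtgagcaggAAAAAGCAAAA
The stretches were found by comparing these 2 ends, so their presence in both is how they were chosen. Each occurs 1 time in each transcript, in the same order, and they do not overlap. Of 141767 GENCODE transcripts of 55341 genes, 2 held the 3 motifs in this order with at most 80 bases between neighbours, namely these 2, and none did on the opposite strand. The A-rich motif alone was in 618 transcripts (0.436%).

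The start sites of the host RNAs are shown for the pyrimidine-rich start that such genes often have, which not all of them held, and for TATA. Each line runs from 40 bases before the RefSeq start to 30 bases from it (GRCm38.p6). Capitals mark TATA between 40 and 20 bases before the start (TATATA holds 2 overlapping copies, and TATA reads the same on both strands) and a run of pyrimidines, opened by a C with at least 4 further C or T, that begins within 10 bases of the start. Gas5 had 2 start windows in RefSeq, and the downstream one is shown, at chr1:161035126-161035195 on the plus strand. Snhg1 is at chr19:8723447-8723516 (plus), Snhg8 at chr3:123508307-123508376 (minus), Snhg12 at chr4:132308638-132308707 (plus) and Malat1, for comparison, at chr19:5802643-5802712 (minus). Neat1 is named only.
Gas5: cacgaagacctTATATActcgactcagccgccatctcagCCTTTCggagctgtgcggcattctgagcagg
Snhg1: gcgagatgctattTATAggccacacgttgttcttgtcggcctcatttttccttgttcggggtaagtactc
Snhg8: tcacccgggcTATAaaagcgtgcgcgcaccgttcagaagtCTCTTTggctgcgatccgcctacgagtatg
Snhg12: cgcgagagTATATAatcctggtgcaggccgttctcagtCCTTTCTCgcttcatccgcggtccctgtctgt
Malat1: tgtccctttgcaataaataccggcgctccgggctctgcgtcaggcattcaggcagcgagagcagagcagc
The other Gas5 window, at chr1:161034561-161034630, held neither feature. All 4 host genes held TATA in a window shown, where 5.81% of 32851 single RefSeq start windows did. The pyrimidine run was in 3 of the 4, against 29.7% of all windows (33.6% on the opposite strand), and TATA and the run together were in the same 3, against 1.80%. The windows had been read before the motifs were set, so these counts are descriptions, and no binding or start site was measured.

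The introns of the host RNAs hold the snoRNA genes. In GENCODE, Gas5 contained 9 snoRNA genes, Snhg1 contained 8, Snhg12 contained 4 and Snhg8 contained 1, and each of the 22 lay inside an intron of the transcript drawn in the map of exons and snoRNA genes. The table gave 7 of the 22 a row of their own. Of these 7, Snord22 in Snhg1 was listed at 0 at P7 and 0.323 RPKM at P28, which is about 1 read, and the other 6 (Snord47 in Gas5, Snora24 in Snhg8, and Snora16a, Snora44, Snora61 and Snord99 in Snhg12) were listed at 0 in both libraries. A count of 0 still allows up to 3 reads. For Snord99 that is 2.30 RPKM at P7 and 1.65 at P28, where its host Snhg12 had 2.62 and 2.75. For Snord47 it is 2.21 and 1.58 RPKM, far below its host Gas5 at 30.8 and 33.6. How well these libraries capture RNAs this short was not tested. Over all 110 rows with snoRNA names, 2 were above 0 at P7 and 14 at P28. The host values therefore come without a matching snoRNA measurement. Snord22 is printed because it is the hosted snoRNA with a read, and Snord99 beside it for its form. Capitals mark TGATGA (the C box core, found in Snord99) and the last CTGA (the D box), by which box C/D snoRNAs bind their proteins. They lie at chr19:8725866-8725991 and chr4:132310691-132310764, both on the plus strand of GRCm38.
Snord22: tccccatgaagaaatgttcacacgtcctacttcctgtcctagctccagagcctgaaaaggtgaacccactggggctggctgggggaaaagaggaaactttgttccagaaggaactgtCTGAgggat
Snord99: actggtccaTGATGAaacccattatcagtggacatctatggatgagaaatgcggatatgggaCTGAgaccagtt

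**Figure D1:**
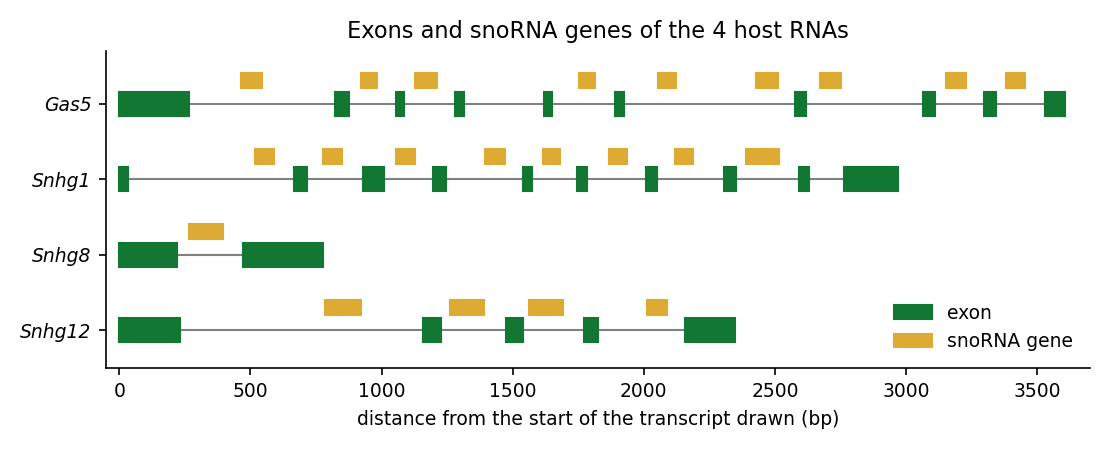
Exons (green) and snoRNA genes (yellow, drawn above) of 1 GENCODE transcript of each host RNA, by distance in bp from the start of the transcript drawn. Every snoRNA gene lies between exons, with 9 in Gas5, 8 in Snhg1, 1 in Snhg8 and 4 in Snhg12.

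Facts of the whole table bear on every value. From the steps between low values, 1 read in a gene of 1 kb was worth 0.0568 RPKM at P7 and 0.0407 at P28, so the P28 library was the deeper. The summed RPKM was 108758 and 143071. Markers of type 2 cells were present in both libraries (12 of 12 past 1 RPKM, summed 17876 and 31284 RPKM). Sftpc held most of that sum (13343 and 24085 RPKM), and 1 of the 12 was at least 2-fold higher at P28. Club cell markers summed to 7237 and 19033 RPKM, with 6 of 7 at least 2-fold higher at P28. Endothelial markers summed to 50.6 and 24.8, fibroblast markers to 37 and 16.7, erythroid markers to 42.5 and 1.32, proliferation genes to 79.5 and 36.7 and type 1 markers to 376 and 227 RPKM. Of 8 fibroblast markers past 1 RPKM, 3 were at least 2-fold lower on log2(RPKM + 1) and 1, Inmt, was higher (0 and 2.31 RPKM). Ciliated cell markers summed to 213 and 207 RPKM, and 2 of 8 macrophage and leukocyte markers passed 1 RPKM, with Marco, C1qa, C1qb and Adgre1 at 0 in both. The part of any of these in the results was not tested, and in bulk RNA fewer cells of a type and less RNA per cell cannot be told apart. Xist had 52.7 RPKM at P7 and 0.245 at P28, and the Y-linked Ddx3y 0 and 4.01, so age and sex of the mice cannot be told apart either.

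Neat1 was the member that differed most. It had 14.6 RPKM at P7 and 49.4 at P28, a ratio of 3.38 (3.20 to 3.57). Its rank among all rows moved from 944 to 246, and among the 2033 rows that RefSeq lists as long noncoding from 11 to 2. On the scale of log2(RPKM + 1) the ratio was 1.69, rank 30 from the top among the 9653 rows that reached 1 RPKM at either age. With both libraries set to the same total RPKM it was 1.31, still past 2-fold. Neat1 (chromosome 19, 5824708 to 5845478, minus strand) is annotated with 4 transcripts of 711 to 20771 bases that overlap, and the table gives 1 value, so the short isoform and the long, paraspeckle-forming isoform cannot be told apart. The length behind its RPKM is not given, and for any of the annotated lengths the interval stayed above 2 (lower bounds 2.88 to 3.28). The nearest protein-coding gene upstream, Frmd8, 4224 bp away on the same strand, had 2.22 RPKM at P7 and 1.48 at P28, the opposite direction.

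Malat1 was the most abundant of the 6 by far and the most abundant long noncoding row in both libraries. It had 1051.5 RPKM at P7, rank 5 of all rows, and 1711 RPKM at P28, rank 7. The ratio was 1.63 (1.61 to 1.65), short of 2-fold, with a log2 ratio of 0.70. The difference exceeded counting error, and its size depended on the scaling: with equal totals the log2 ratio was 0.31, and across all settings tried it ran from 0.31 to 0.81. As a share of summed RPKM, Malat1 was 0.967% at P7 and 1.20% at P28. The gene (chromosome 19, 5795690 to 5802672, minus strand) lies 22035 bp from Neat1, downstream on the same strand. Nothing states that the counting used strand, and the gene model Gm37376 lies antisense within Malat1.

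**Figure D2:**
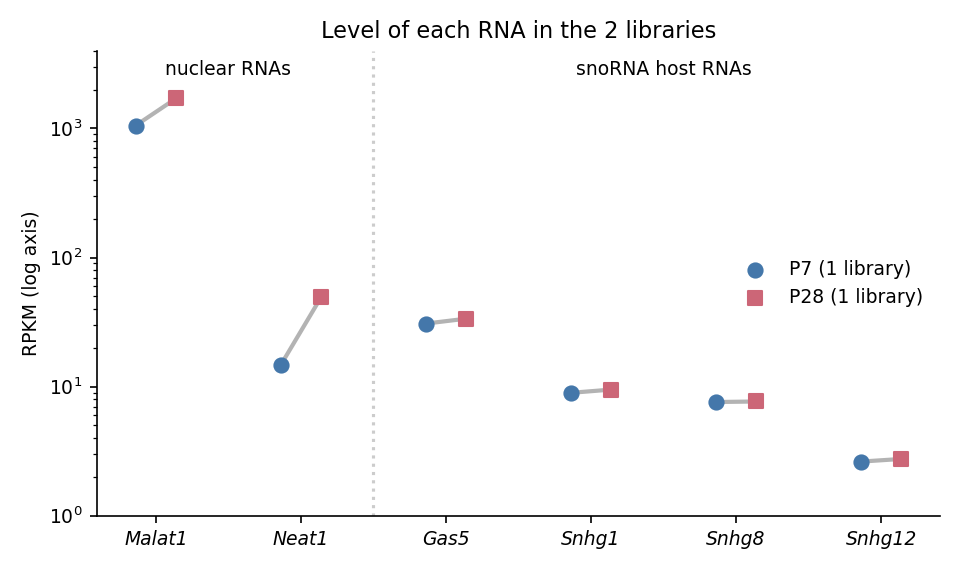
RPKM of each of the 6 RNAs on a log axis, with a circle for the P7 library and a square for the P28 library joined by a line. Malat1 stands at 1051.5 and 1711 RPKM, Neat1 goes from 14.6 to 49.4, and the 4 host RNAs are nearly level.

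The 4 host RNAs had nearly the same values at both ages. Gas5, named for its accumulation in growth-arrested cells and known as a decoy for the glucocorticoid receptor, had 30.8 RPKM at P7 and 33.6 at P28 (ratio 1.09, 0.960 to 1.24). Snhg1 had 8.95 and 9.48 RPKM (1.06, 0.840 to 1.33). Each interval holds 1, as do those of the other 2 hosts, so no difference was detectable at this depth. Snhg8 had 7.59 and 7.67 RPKM (1.01, 0.781 to 1.31), and Snhg12 had 2.62 and 2.75 (1.05, 0.633 to 1.76). The widest interval belongs to the lowest RNA: it leaves room for a Snhg12 level up to 1.76-fold higher or down to 0.633 of that at P7. For Gas5 the interval depends on the length assumed. With its longest transcript of 2556 bases it was 1.02 to 1.17, which excludes 1, and with the shortest of 346 bases 0.908 to 1.32. With equal totals all 4 stood below 0 on the log2 scale, with Gas5 at -0.26, Snhg1 at -0.28, Snhg8 at -0.34 and Snhg12 at -0.24. Their direction thus flips with equal totals, while the median of all 9653 rows also moved, from -0.08 to -0.38. With equal upper quartiles all 4 stayed above 0, from 0.04 for Snhg8 to 0.16 for Gas5. With equal totals computed without the most abundant rows, only Snhg8 was below 0, at -0.01.

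For 2 of the host RNAs an annotated length gave whole reads. A length of 785 bases, the whole unspliced RefSeq locus, gave 105 reads at P7 and 148 at P28 for Snhg8, both whole within 0.05. For Snhg12 a spliced GENCODE transcript of 606 bases gave 28 and 41 reads, also whole. Several lengths were tried for each gene, and 10% of random values are whole within that tolerance, so a match does not show which gene model was used. Gas5, Snhg1, Neat1 and Malat1 had too many reads or no annotated length that gave whole reads in both libraries, and took the mean of their annotated lengths.

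**Figure D3:**
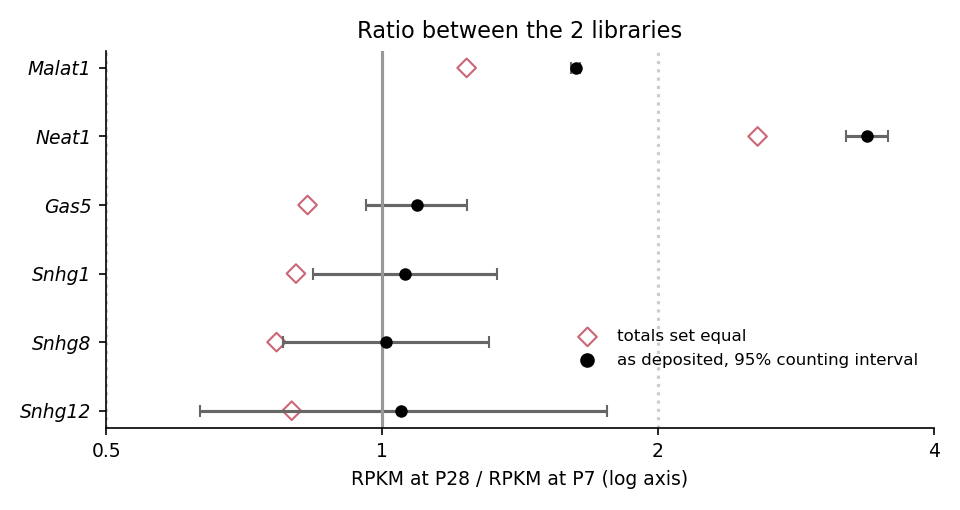
Ratio of RPKM at P28 over P7 for each RNA on a log axis, with filled points and bars for the deposited values and their 95% counting interval, and open diamonds for the ratio after both libraries were set to the same total. Neat1 stays above 2 either way, Malat1 between 1 and 2, and the 4 host RNAs lie at 1.01 to 1.09 as deposited and below 1 with equal totals.

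The order of the 6 levels changed in 1 place. At P7 it was Malat1, Gas5, Neat1, Snhg1, Snhg8 and Snhg12, and at P28 Neat1 had passed Gas5. Gas5 stood at 2.11 times Neat1 at P7 and 0.680 times at P28. Within the hosts the proportions held nearly level: Gas5 made 61.6% of their summed RPKM at P7 and 62.8% at P28, Snhg1 17.9% and 17.7%, Snhg8 15.2% and 14.3%, and Snhg12 5.25% and 5.14%. The summed host level was 49.9 and 53.5 RPKM (1.07-fold), and that of the nuclear RNAs 1066 and 1761 (1.65-fold). Their ratio went from 21.4 to 32.9, a change of 1.54-fold that rests on Malat1, which held 94.2% and 94.3% of the 6 RNAs' RPKM. Neat1 alone over the hosts went from 0.293 to 0.924 (3.16-fold). Malat1 over Neat1 fell from 72 to 34.6, 0.481 of its P7 value. These ratios are within a library and do not depend on the scaling. The order of the levels and the size of each ratio do depend on the gene lengths behind the RPKM, which are not given. For a ratio of 2 single genes, the change between the libraries does not. Whether both libraries captured RNAs without an ordinary poly(A) tail equally was not tested. A difference in capture would bear on Malat1 and the long Neat1 isoform, and cannot be told apart here from a difference in level.

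Of the 6 RNAs 1 was at least 2-fold higher at P28 on the log2(RPKM + 1) scale and none was lower, where 1.18% of all 9653 rows were higher and 1.96% lower. With equal totals it was again Neat1 alone, where 0.673% of rows were higher and 4.61% lower. All 6 passed the filter of 1 RPKM. Their median log2 ratio was 0.10, against -0.08 over all rows. Among the 146 long noncoding rows past the filter the median was -0.02, with 4 rows (2.74%) higher and 5 (3.42%) lower, and Neat1 had the second largest log2 ratio of them.

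**Figure D4:**
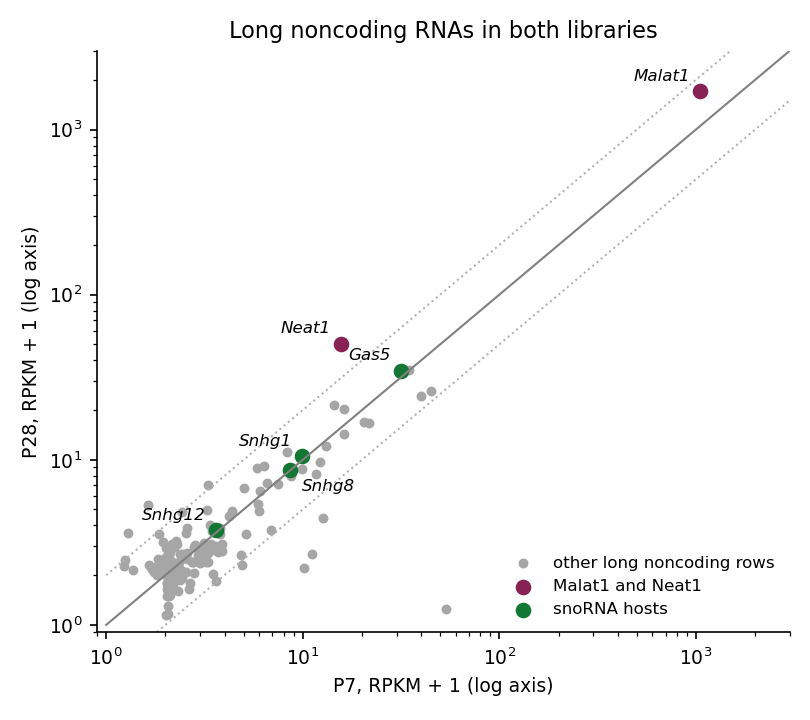
RPKM + 1 at P7 against P28 on log axes for the 146 long noncoding rows past the filter, with Malat1 and Neat1 in purple, the 4 snoRNA hosts in green, the diagonal solid and 2-fold limits dotted. Neat1 lies above the upper limit, Malat1 between it and the diagonal, and the hosts on the diagonal; the point far below at the right is Xist.

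Lists of related genes are read on the same log2(RPKM + 1) scale, on which 2-fold is judged and 39.3% of all 9653 rows were above 0. Intervals of listed genes assume the mean annotated length of each, and no other length was tried. Of 18 other noncoding snoRNA hosts listed, 17 were matched to a row by a current or older symbol and 13 passed the filter. No row was matched to Snhg29, which does not show that it has none under another name. Of the 13, 0 were 2-fold apart, with 6 above 0 and a median of -0.08. Zfas1, in the table under its older symbol 1500012F01Rik, had the largest difference among those of 5 RPKM or more, with 10.7 and 7.22 RPKM (ratio 0.675, 0.547 to 0.838). Snhg11, at 15.2 and 13.4 RPKM, was the most abundant of them (0.881, 0.792 to 0.980). Snhg5 had 6.52 and 6.12 RPKM and Snhg18 5.05 and 5.48, with intervals that hold 1. None of these 13, nor Gas5, Snhg1, Snhg8 or Snhg12, reached 2-fold. Rian, a noncoding snoRNA host placed in another list below, did, with 10.2 and 1.70 RPKM (log2 ratio -2.04).

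Protein-coding genes that also carry snoRNAs in their introns are mostly ribosomal protein and translation genes. All 30 listed passed the filter and 0 were 2-fold apart, with 10 above 0 and a median of -0.16. Hspa8, a constitutive heat shock chaperone and the host of Snord14 snoRNAs, had 159 and 275 RPKM (1.73, 1.67 to 1.81), the largest log2 ratio among those that reached 5 RPKM. Below that level Taf1d, a transcription factor subunit gene, had 4.44 and 2.37 RPKM (0.533, 0.402 to 0.711). Rpl4, a large subunit protein, had 123 and 88.4 RPKM (0.721, 0.679 to 0.766). Nop56 and Nop58, which are both snoRNA hosts and core proteins of box C/D particles, were lower, with 6.92 and 4.18 RPKM (0.605, 0.462 to 0.781) and 7.01 and 4.63 RPKM (0.660, 0.522 to 0.828).

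Of 19 listed genes for proteins that build and load snoRNA particles, 17 passed the filter, measured as RNA. None was 2-fold apart on the log2(RPKM + 1) scale, 2 of 17 were above 0 (Nop10 and Ruvbl1), and the median was -0.17. By the plain ratio, the low-level genes Rpap3 (0.485, 0.279 to 0.849) and Rrp9 (0.486, 0.192 to 1.14) were past 2-fold lower. Nop10, a small protein of box H/ACA particles, had 9.85 and 17.9 RPKM (1.82, 1.54 to 2.16). Ruvbl2, an ATPase of the assembly machinery, had 7.83 and 7.26 RPKM. Genes of nonsense-mediated decay, which degrades spliced host RNAs, likewise held 0 of 17 that were 2-fold apart, with 3 above 0 and a median of -0.08. Their kinase gene Smg1 had 5.98 and 6.76 RPKM (1.13, 1.00 to 1.27), the exon junction gene Eif4a3 15.2 and 10.8 (0.707, 0.577 to 0.870), its partner Magoh 16.9 and 15.7, and the release factor gene Gspt1 5.52 and 4.45.

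Paraspeckle protein genes encode the partners of Neat1. Of 30 genes, all past the filter, 0 were 2-fold apart, 7 were above 0 and the median was -0.16, which was -0.05 with the median of all rows set to 0. Nono, a core paraspeckle protein that binds Neat1, had 22.9 RPKM at P7 and 13.6 at P28 (0.594, 0.513 to 0.684). Rbm3, a cold-inducible RNA-binding protein, had 32.1 and 19.2 (0.597, 0.538 to 0.663), and the chromatin remodeller Smarca4 7.71 and 4.56 (0.591, 0.530 to 0.659). Hnrnph3, a splicing regulator, was higher, with 12.2 and 18.3 RPKM (1.49, 1.30 to 1.72). With equal totals Nono and Rbm3 passed 2-fold lower (log2 ratios -1.09 for each). Neat1 itself was past 2-fold higher under the same scaling.

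Nuclear speckle and splicing genes encode the proteins around Malat1. Of 29 genes 0 were 2-fold apart and 9 were above 0, with a median of -0.17 that was -0.06 with the median of all rows set to 0. The kinase genes Clk1 and Clk4, which phosphorylate SR splicing factors and whose own transcripts are often kept in the nucleus with introns, were higher, with 17.8 and 27.4 RPKM (1.53, 1.37 to 1.71) and 13.3 and 21.1 RPKM (1.58, 1.36 to 1.84). The SR protein gene Srsf5 had 89 and 62.4 RPKM (0.701, 0.663 to 0.742) and the helicase gene Ddx39b 19.9 and 14.4 (0.725, 0.644 to 0.816).

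Genes that process the Malat1 3′ end include the RNA and proteins of RNase P and the RNase Z gene Elac2. Of 12 listed, 7 passed the filter, 0 were 2-fold apart and 6 were above 0, with a median of 0.31 that became 0.04 with equal totals. Rpph1, the catalytic RNA of RNase P, had 7.69 and 11.6 RPKM (1.51, 1.04 to 2.23), and its protein partner Rpp21 4.54 and 7.08 (1.56, 1.06 to 2.31). The gene below 0 was Pop4, which did not reach 5 RPKM, with 2.71 and 1.61 RPKM (0.593, 0.378 to 0.928).

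Of 32 other long and structural noncoding RNAs listed, 29 had a row and 16 passed the filter, with 1 at least 2-fold higher, 3 lower, and a median of -0.14. With equal totals 0 were higher and 4 lower, the fourth being Fendrr, a long noncoding RNA, at 2.51 and 1.04 RPKM (0.414, 0.285 to 0.589). Rmrp, the RNA of RNase MRP, which processes ribosomal RNA, had 6.19 and 14.5 RPKM (2.34, 1.54 to 3.65), although its log2 ratio of 1.11 became 0.75 with equal totals. The 3 lower RNAs were Xist, the X-inactivation RNA, and the imprinted Meg3 (9.16 and 1.21 RPKM) and Rian (10.2 and 1.70), the latter also a snoRNA host. Rn45s, the ribosomal precursor row, was named after its values were seen. It had 2995 RPKM at P7 and 5978 at P28, just short of 2-fold, and its log2 ratio was 0.60 after scaling to equal totals. Tug1, a long noncoding RNA found in nucleus and cytoplasm, also chosen so, had 12.1 and 11.1 RPKM.

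**Figure D5:**
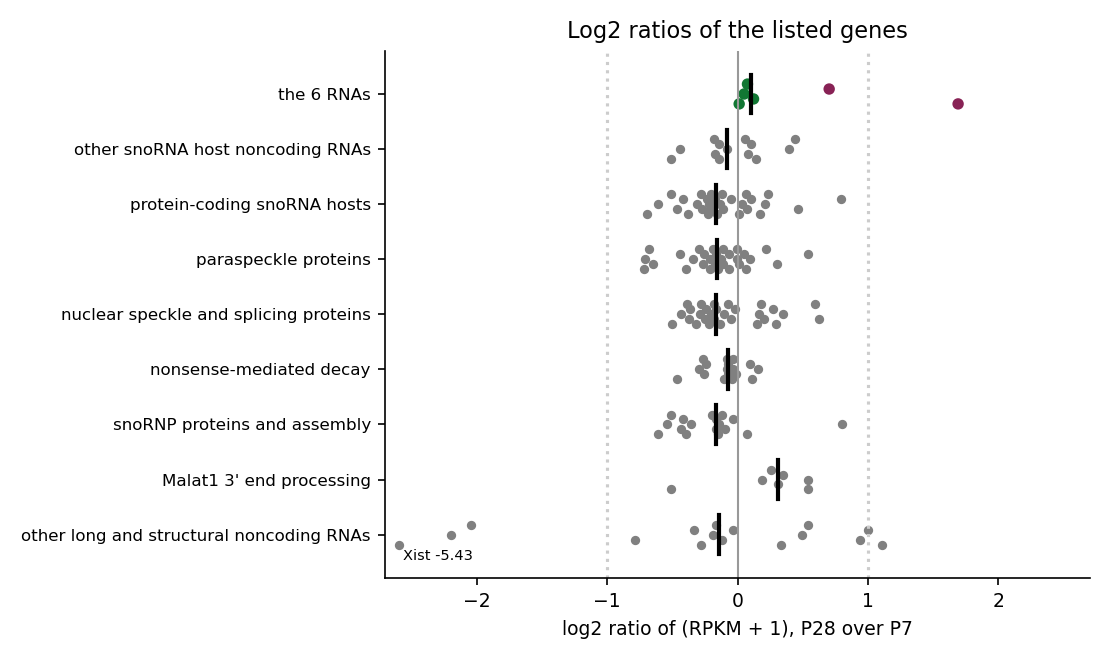
Log2 ratio of (RPKM + 1), P28 over P7, for the 6 RNAs (Malat1 and Neat1 purple, hosts green) and for every gene past the filter in 8 lists (grey), with the median as a black bar, 2-fold as dotted lines and Xist drawn at the left edge. Neat1 at 1.69 lies to the right of every listed gene, and the list medians run from -0.17 to 0.31.

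Genes whose pair of values lay nearest to a member were found by distance over log2(RPKM + 1) in the 2 libraries, a measure of level and difference only. For Malat1 they were the secreted chemokine gene Cxcl15 (1012 and 1820 RPKM) and the surfactant protein genes Sftpa1 and Sftpb. For Neat1 they were the antibacterial lectin gene Reg3g (13.4 and 44.5 RPKM) and the heat shock co-chaperone genes Dnaja1 (17.6 and 39.5) and Dnajb1 (12.1 and 38.6). Gas5 lay nearest to Pebp1 (30.1 and 33.3 RPKM), Bex4 and Cstb, Snhg1 to Tspan31, Dpy30 and Mapre2, Snhg8 to Ube2k, Use1 and Smpd1, and Snhg12 to Mon1b, Ccdc146 and Mitf. The neighbours of Malat1 and Neat1 were 0.10 to 0.43 away and those of the hosts 0.05 or less, since few genes share so high a level or so large a difference.

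The loci of the host RNAs are close to other genes. Gas5 (chromosome 1, 161034422 to 161038539, plus strand) overlaps Zbtb37 on the opposite strand by 427 bp, and Zbtb37 had 1.51 and 1.07 RPKM. Snhg1 (chromosome 19, 8723475 to 8726443, plus strand) starts 106 bp from the divergent gene Slc3a2, an amino acid transporter subunit with 9.82 and 9.64 RPKM, nearly the level of Snhg1 in each library. Snhg12 (chromosome 4, 132308623 to 132311024, plus strand) lies 739 bp from Trnau1ap, with 2.76 and 2.27 RPKM. Snhg8 (chromosome 3, 123507552 to 123508404, minus strand) lies 955 bp from Prss12, a protease gene with 0.240 and 0.0312 RPKM. These neighbours were chosen by position, and without stated strand use reads in the Gas5 overlap cannot be told apart.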

How the data were processed

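RPKM values were deposited by the authors, 1 column per sample, per the file headers. Per the labels' protocols, total RNA of sorted cells was reverse transcribed (Verso kit) and made into paired-end Nextera XT libraries. TopHat, TopHat2 2.0.9 and GRCm38 (mm10) are listed, without roles, per the submitters' processing notes. The program that computed RPKM, its annotation and any use of strand are not given in the sources. RPKM has no fixed total, so the most abundant genes bear on every other value.

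Reads were recovered from RPKM times length: low single-length genes held whole reads (within 0.05) in 52.4% of 1286 P7 values and 51.9% of 1251 P28 values, against 10% for random decimals. Lengths came from GENCODE M21 and RefSeq GRCm38.p6. Where no length gave whole reads in both libraries, the mean annotated length was used. Intervals are Clopper-Pearson, floors are 3 reads, and PCR reads are not independent molecules.

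Log2 ratios used a pseudocount of 1 RPKM, which understates differences of low genes, in rows that reached 1 RPKM at either age. A row was called at 2-fold. In each of 8 lists, the 4 largest ratios among genes that reached 5 RPKM, and all genes 2-fold apart, were named. Members and lists were chosen with earlier results of these data known. Python 3.11.15, scipy 1.17.1 and pandas 2.3.3 were used. The procedure was tested on simulated counts with counting error only, for genes of a known single length. That test does not cover assumed lengths or PCR copies. Alternatives changed the pseudocount, filter, scaling, transcript length and members used.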

Additional observations from a re-analysis of the deposited data

How the results depend on the processing

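Neat1 stayed at least 2-fold higher in all 9 settings tried, with log2 ratios from 1.31 to 1.80, and remained the 1 member called. Malat1 stayed above 0 and under 2-fold in all 9. The 9 include the main setting, and neither no filter nor a filter of 5 RPKM can change the log2 ratio of a single gene. The host RNAs were below 0 with equal totals, and Snhg8 also in 1 further setting. The median of the 6 members was -0.25 with equal totals. The change of the nuclear-to-host ratio was 3.16 without Malat1, an alternative chosen after seeing the data, and could not change with the pseudocount or without the filter. Counts over all genes were 65 higher and 445 lower with equal totals, 73 and 93 with a filter of 5 RPKM, 226 and 530 with a pseudocount of 0.1, and 39 and 34 with a pseudocount of 5. No paired analysis was possible because each age has 1 library. Depth limits Snhg12, at 28 and 41 reads, and the snoRNA rows.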

Other observations

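Besides Neat1, 3 long noncoding rows were at least 2-fold higher at P28, chosen here after their values were seen. Gm6213 had 0.623 RPKM at P7 and 4.33 at P28, AW112010 had 0.293 and 2.62, and A630089N07Rik had 2.28 and 5.99. Of the 5 lower rows, 2 are not in any list above: Crnde had 11.6 and 3.47 RPKM, and 1600020E01Rik had 3.92 and 1.31. Lincpint, within 2-fold on the log2 scale at 0.94, had 0.848 and 2.54 RPKM, a plain ratio of 3.00 (1.63 to 5.76). The long noncoding RNA row next below Neat1 in level at P28, D330041H03Rik, had 33.6 and 33.9 RPKM.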
